A study of Rattus norvegicus with 6 samples.

Results

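Central carbon metabolism was examined in primary cultured rat oligodendrocyte precursor cells (OPCs), from which the myelin-forming oligodendrocytes of the brain arise, through 36 listed enzymes of glycolysis, of the lactate and pyruvate step, of the tricarboxylic acid (TCA) cycle and of the pentose phosphate pathway. Members were the rows of the deposited table that carry one of the 36 gene names, and 33 were found among 32883 genes. Gapdh, Ogdh and Pgd have no row under those names. The cells came from the cortices of newborn Sprague Dawley rats, 2 animals per preparation, were shaken off a mixed culture grown in serum, and were then kept in Neurobasal medium with B27 and N2. One group received 5 µM ZJU-37, an inhibitor of the kinase RIPK1, and the other an equal volume of its solvent DMSO. The labels give 36 h of treatment and the study's methods a shorter time. Each group holds 3 libraries of poly-A RNA, numbered 1 to 3, which the study's methods call biological repeats and one of its legends counts as plate wells. The sources do not say whether the libraries of a group came from separate animals, so the p-values measure only the spread between these libraries, which may be technical.

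Glycolysis splits glucose into pyruvate in the cytosol and yields ATP and NADH. Lactate dehydrogenase turns pyruvate into lactate and back, while the pyruvate dehydrogenase complex, held in check by its kinases, feeds pyruvate as acetyl-CoA into the TCA cycle of the mitochondria. The pentose phosphate pathway branches off after the first glycolytic step and supplies NADPH and ribose for nucleotides. Several steps are served by more than one gene, and the forms differ in tissue, compartment or regulation. Oligodendrocytes are known to release lactate that axons can use, and the lineage needs acetyl-CoA and NADPH to make myelin lipids.

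With ZJU-37, forms of the same enzyme step changed in opposite directions. The phosphofructokinase Pfkl fell by 44.8% while Pfkp rose by 66.2%, Ldha fell by 26.2% while Ldhb rose by 33.3%, and Idh1 fell by 43.1% while Idh2 rose by 26.0%. Of the 33 enzymes, 32 passed the filter on low counts, and 3 of them were higher with ZJU-37 (Pfkp, Ldhb and Idh2) and 5 lower (Pfkl, Ldha, Pdhb, Idh1 and Mdh2) at an edgeR adjusted p under 0.05. That is 9.38% of the enzymes higher, beside 9.43% of all 14670 genes tested, and 15.6% lower, beside 5.58%. The count of lower enzymes rests on all libraries, since it was 3 without DMSO 1, DMSO 2, ZJU-37 1 or ZJU-37 2, and 1 without DMSO 3 or ZJU-37 3. The count of higher enzymes was 2 or 3 in the same fits, and 2 without DMSO 2, DMSO 3, ZJU-37 1 or ZJU-37 3.

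Libraries with the same number deviated together, so each count is also given with the replicate number as a block. In that fit 6 enzymes were higher (18.8%, beside 16.2% of all genes) and 11 lower (34.4%, beside 15.9%). The added enzymes were Pdha1, Pdk3 and Mdh1 among the higher ones and Hk2, Gpi, Aldoa, Pdk1, Pdk2 and Idh3a among the lower ones. All 8 enzymes called without the block were called with it, and 15 of the 32 passed in neither fit. Counted by library values alone, the 3 ZJU-37 libraries stood above the 3 DMSO libraries for 6 enzymes (18.8%, beside 19.0% of all genes) and below them for 12 (37.5%, beside 16.2%). The median log2 fold change of the 32 enzymes was -0.06, beside -0.03 for all genes tested.

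**Figure D1:**
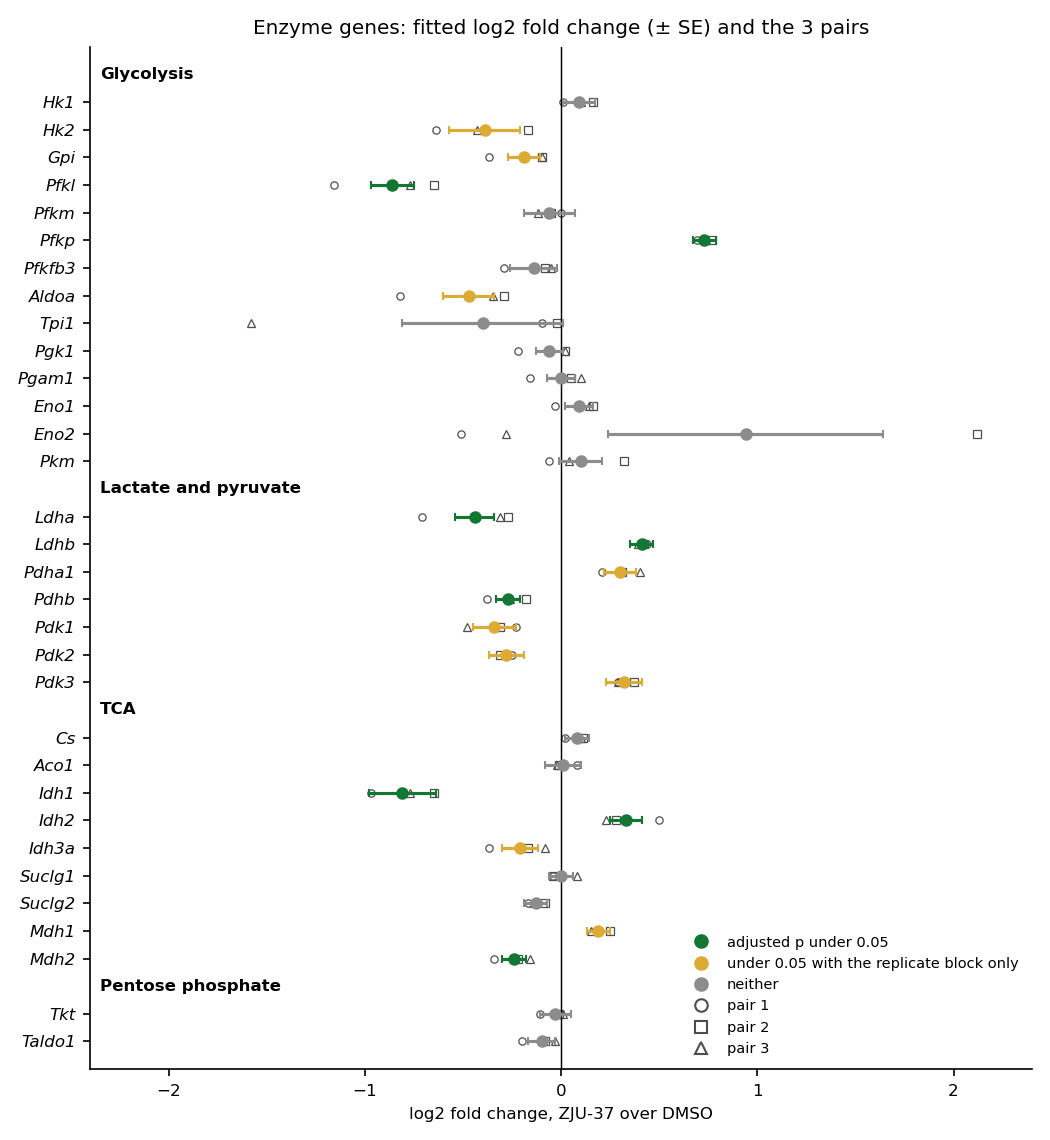
Log2 fold change of ZJU-37 over DMSO (x axis) for the 32 tested enzymes, grouped by pathway, with filled points and bars for the edgeR fold change ± SE (n = 3 libraries per group) and open symbols for the 3 pairs of same-numbered libraries. Pfkl and Idh1 lie farthest to the left among the called enzymes and Pfkp farthest to the right, while pair 2 of Eno2 stands apart from its other pairs at 2.12 and pair 3 of Tpi1 at -1.58.

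The libraries held 13935865 to 24097927 counts, and a gene with 3 counts stood at 0.124 to 0.219 CPM, a unit that divides counts by library size, so apart from Pdk4, Eno2 and Tpi1 depth does not limit the values here. CPM are given on edgeR's normalized (TMM) scale. In bulk RNA, fewer cells of a type and less RNA per cell cannot be told apart. All 6 OPC markers were expressed, at a summed 3530 to 4100 CPM with DMSO and 4380 to 6030 CPM with ZJU-37. Of these, Pdgfra (1.10 on the log2 scale), Cspg4 (1.04), Olig1 (0.64) and Ptprz1 (0.54) were higher, and Sox10 was lower (-0.61, adjusted p = 0.043). The same counts also held markers of other cells. The 6 oligodendrocyte markers summed to 10500 to 21200 CPM with DMSO and 4470 to 9470 CPM with ZJU-37, with 1 of 6 lower (Cnp, -1.36 on the log2 scale) and 4 of 6 lower with the block. The 10 microglia markers summed to 2400 to 4190 CPM and 1750 to 3680 CPM, with 5 of 10 lower with the block. The 8 astrocyte markers stood at 909 to 1520 CPM and 829 to 1260 CPM, and with the block 3 were lower (Aqp4, Gfap and Gja1, at -0.96, -0.75 and -0.51 without it), while Sox9 was higher in both fits (0.53). The 8 neuron markers stood at 187 to 313 CPM and 167 to 244 CPM, with 3 lower with the block (Syt1 at -0.47, Gad1 at -0.29 and Stmn2 at -0.19 without it). The 6 proliferation genes were all higher, at 716 to 764 CPM with DMSO and 1540 to 1880 CPM with ZJU-37. No marker of these lists was at 0 in every library. The part of these marker shifts in the enzyme results below was not tested.

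Levels between genes were compared per length, as the authors' FPKM. Among the 33 rows found by name, the glycolytic enzyme Aldoa led with a DMSO mean of 564 FPKM, followed by Eno1 at 359, Ldha at 334 and Pkm at 314 FPKM. Eno1, Ldha and Pkm overlapped in their DMSO libraries (348 to 369, 308 to 382 and 277 to 348 FPKM), so their order is not settled by 3 libraries. Taldo1 and Tkt of the pentose phosphate pathway came next at 268 and 257 FPKM, again with overlapping libraries. TCA enzymes ranged from 193 FPKM (Mdh2) to 32.6 FPKM (Suclg2). The pyruvate dehydrogenase kinases were low, with Pdk2 at 18.4, Pdk3 at 13.1 and Pdk1 at 10.2 FPKM. Pdk4 had 1 to 9 counts per library and was not tested. With ZJU-37, Aldoa (406 FPKM) and Eno1 (381 FPKM) kept the first places of the order, with library ranges of 332 to 459 and 366 to 393 FPKM that overlapped, and Pfkl moved from rank 15 to rank 24. Ldha fell to a mean of 246 FPKM, where its libraries (237 to 251 FPKM) overlapped those of Tkt (230 to 261) and Taldo1 (231 to 260).

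**Figure D2:**
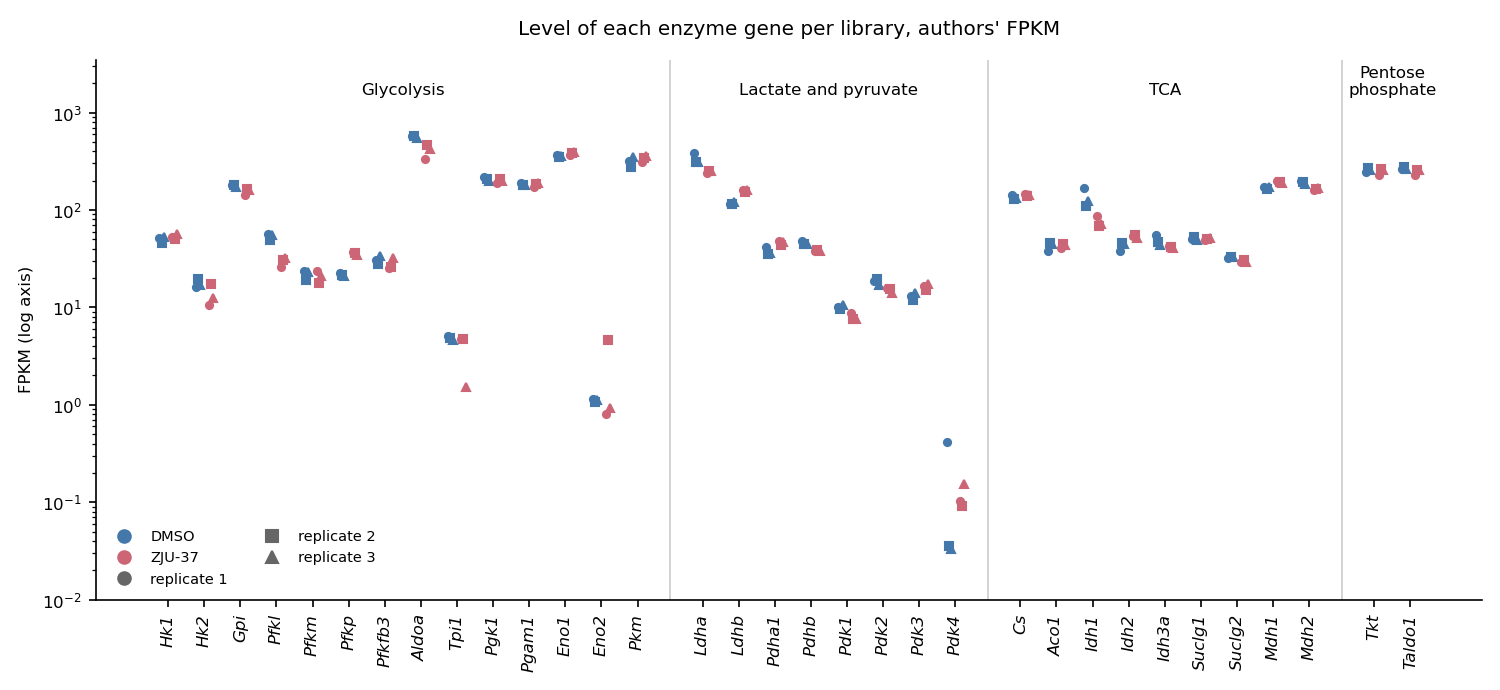
FPKM per library on a log axis for the 33 enzymes, grouped by pathway, with DMSO in blue, ZJU-37 in red and the symbol giving the replicate number. Aldoa reaches 576 FPKM in DMSO 1, and Tpi1, Eno2 and Pdk4 lie apart from the others at 5.06 FPKM or less.

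Glycolysis had 14 tested enzymes, of which 1 was higher and 1 lower (1 and 4 with the block), with a median log2 fold change of -0.06. Of all genes tested, 9.43% were higher and 5.58% lower (16.2% and 15.9% with the block). Both glycolytic calls without the block fell on phosphofructokinase, the committed and most regulated step, which adds a further phosphate to fructose 6-phosphate. Pfkl, the liver type form, is annotated at chromosome 20, 11393877 to 11415882, in the authors' coordinates, whose build the table does not name. It stood at 158, 134 and 154 CPM in DMSO 1 to 3 and at 70.6, 84.9 and 90.0 CPM in ZJU-37 1 to 3. Every ZJU-37 library was far below every DMSO library. Pfkl fell by 0.86 on the log2 scale (SE 0.11, n = 3 per group, edgeR adjusted p = 0.00304), and the call held when any library was left out.

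Pfkp, the platelet type form (chromosome 17, 68511064 to 68559471), went the opposite way. It stood at 51.3, 48.4 and 47.3 CPM with DMSO and at 82.6, 82.5 and 79.0 CPM with ZJU-37. The libraries of a group lay close together and the groups did not overlap. On the log2 scale the rise was 0.73 (SE 0.06, edgeR adjusted p = 5.68e-04), and this call also held in all 6 fits that leave out a library. Pfkm, the muscle type form, stood at 70.4, 55.8 and 68.3 CPM with DMSO and 70.5, 53.9 and 62.6 CPM with ZJU-37, with a log2 fold change of -0.06 (SE 0.13, adjusted p = 0.818). Pfkfb3, which makes and breaks down the phosphofructokinase activator fructose 2,6-bisphosphate, had a log2 fold change of -0.14 (SE 0.12, adjusted p = 0.542).

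The makeup of the enzyme step therefore differed between the groups. Pfkp made up 21.9, 24.2 and 21.0% of the summed FPKM of Pfkl, Pfkm and Pfkp with DMSO, and 42.6, 42.8 and 39.5% with ZJU-37. A share of this kind is taken within a library and does not depend on library size. The means were 22.4% ± 1.63 and 41.6% ± 1.85 (SD, n = 3), a difference of 19.2 percentage points that was higher in 3 of 3 pairs. The two-sided exact permutation test gave p = 0.1, the smallest value that 3 against 3 libraries allow, and 0.14 after Benjamini-Hochberg adjustment over 7 such shares, so no share could pass the threshold in this design.

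**Figure D3:**
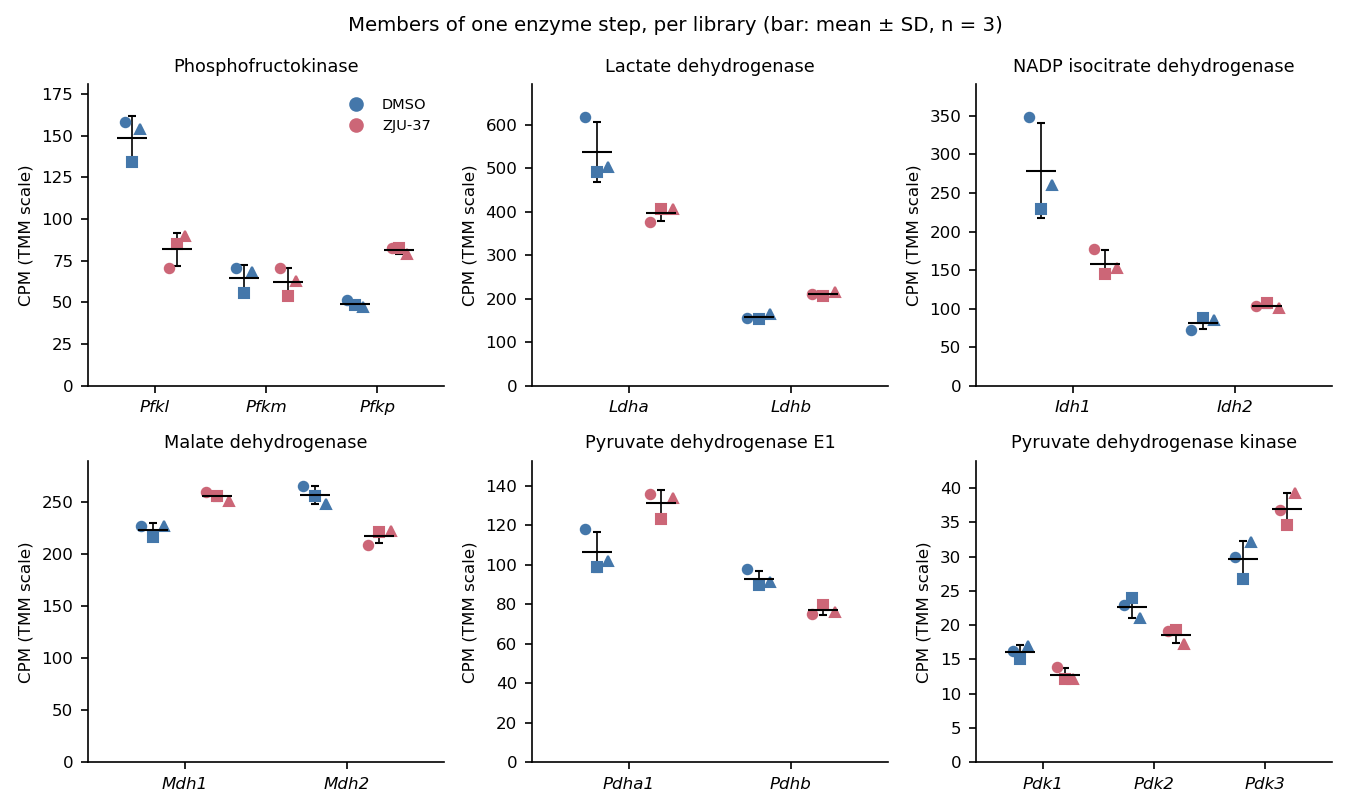
CPM per library for forms or subunits that serve one enzyme step, in 6 panels whose axes start at 0, with DMSO in blue, ZJU-37 in red, the symbol giving the replicate number (circle 1, square 2, triangle 3) and bars for the mean ± SD (n = 3). Pfkl, Ldha, Idh1, Mdh2, Pdhb, Pdk1 and Pdk2 lie lower with ZJU-37 and Pfkp, Ldhb, Idh2, Mdh1, Pdha1 and Pdk3 higher, without overlap, while Pfkm overlaps.

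Around this step, 3 further glycolytic enzymes missed the threshold without the block and passed it with the block. Aldoa, the aldolase that cuts fructose 1,6-bisphosphate, stood at 936, 915 and 888 CPM with DMSO and 532, 748 and 697 CPM with ZJU-37. All ZJU-37 libraries were lower, ZJU-37 1 by the most. Its log2 fold change was -0.47 (SE 0.13, adjusted p = 0.055 and 0.029 with the block). Without the block it also passed under 8 other choices of normalization, tool or filter, at an adjusted p of 0.00519 (DESeq2) to 0.0492 (limma-voom). Gpi, which converts glucose 6-phosphate to fructose 6-phosphate, stood at 363, 360 and 347 CPM and at 281, 334 and 324 CPM (log2 fold change -0.19, adjusted p = 0.186 and 0.0465 with the block).

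Hexokinases trap glucose in the cell as glucose 6-phosphate. Hk2, the inducible form, stood at 89.4, 107 and 92.9 CPM with DMSO and at 57.5, 94.8 and 68.9 CPM with ZJU-37. ZJU-37 2 lay within the DMSO range, and each ZJU-37 library was below the DMSO library of the same number. For Hk2 the log2 fold change was -0.39 (SE 0.18, edgeR adjusted p = 0.233), and with the block -0.41 (SE 0.09, adjusted p = 0.00879). Without ZJU-37 2 it was -0.58 (adjusted p = 0.0341). The more abundant Hk1 had 0.09 (adjusted p = 0.551). The Hk2 share of the pair was 26.1% ± 3.44 with DMSO and 20.1% ± 4.65 with ZJU-37 (SD, n = 3), with overlapping libraries and an exact permutation p = 0.3.

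The later steps of glycolysis, which yield ATP, gave no call. Pgk1, Pgam1, Eno1 and Pkm had log2 fold changes between -0.06 and 0.10, with adjusted p from 0.459 to 0.997 and no call with the block. Pkm, the last step, stood at 684, 593 and 750 CPM with DMSO and 657, 742 and 769 CPM with ZJU-37. For glyceraldehyde 3-phosphate dehydrogenase, the enzyme usually written Gapdh, the table has a pair of rows named LOC108351137 that carry its description. The one on chromosome 4 stood at 1020, 981 and 978 CPM with DMSO and 831, 948 and 978 CPM with ZJU-37 (log2 fold change -0.11, adjusted p = 0.447). Its DMSO mean of 986 FPKM was above that of Aldoa, the highest of the named members. The one on chromosome 5 had a log2 fold change of -0.02 (adjusted p = 0.867). Neither is counted among the members.

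For Tpi1 and Eno2 the table also holds genes annotated as like them, called copies here from their descriptions, whose sequences were not compared. Tpi1, the triosephosphate isomerase, stood at 7.38, 7.06 and 6.69 CPM with DMSO and 6.87, 6.98 and 2.23 CPM with ZJU-37. Per length, its DMSO mean of 4.85 FPKM was far below that of its neighbours in the pathway. A triosephosphate isomerase-like gene, LOC100911515, held 334, 603 and 880 counts with DMSO and 523, 976 and 1938 counts with ZJU-37. When Tpi1 and its copies were summed, the values were 31.9, 41.7 and 54.8 CPM and 35.4, 54.8 and 83.6 CPM. Summing turned the log2 fold change from -0.40 (adjusted p = 0.591) to 0.44 (adjusted p = 0.465), and with the block from -0.53 (adjusted p = 0.304) to 0.40 (adjusted p = 0.00801). Both groups spread widely in the sum and overlapped, so the level and the direction of Tpi1 are uncertain. Eno2, the neuronal form of enolase, held 37, 45 and 50 counts with DMSO and 35, 228 and 53 with ZJU-37, and its copy LOC100911625 held 50, 42 and 31 and then 169, 50 and 45. A high value thus appeared in ZJU-37 2 for one row and in ZJU-37 1 for the other. The log2 fold change of Eno2 was 0.94 (SE 0.70, adjusted p = 0.453), and -0.33 without ZJU-37 2. Its share of the summed FPKM of Eno1 and Eno2 was 0.309% ± 0.00161 with DMSO and 0.548% ± 0.556 with ZJU-37 (SD, n = 3, exact permutation p = 1).

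Copies mattered less for the abundant members. Ldha held 96.9 to 97.5% of the sum with its copy, Eno1 97.4 to 97.6% and Pdha1 91.5 to 93.3%, and their fold changes moved by at most 0.01 on summing. Pkm held 79.1% of its sum in DMSO 2 and 90.6 to 94.8% elsewhere, and 1 copy, AABR07044711.1, had 2395 counts in DMSO 2 and 302 to 908 in the other libraries. Summed, Pkm had a log2 fold change of 0.04 (SE 0.07, adjusted p = 0.781).

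**Figure D4:**
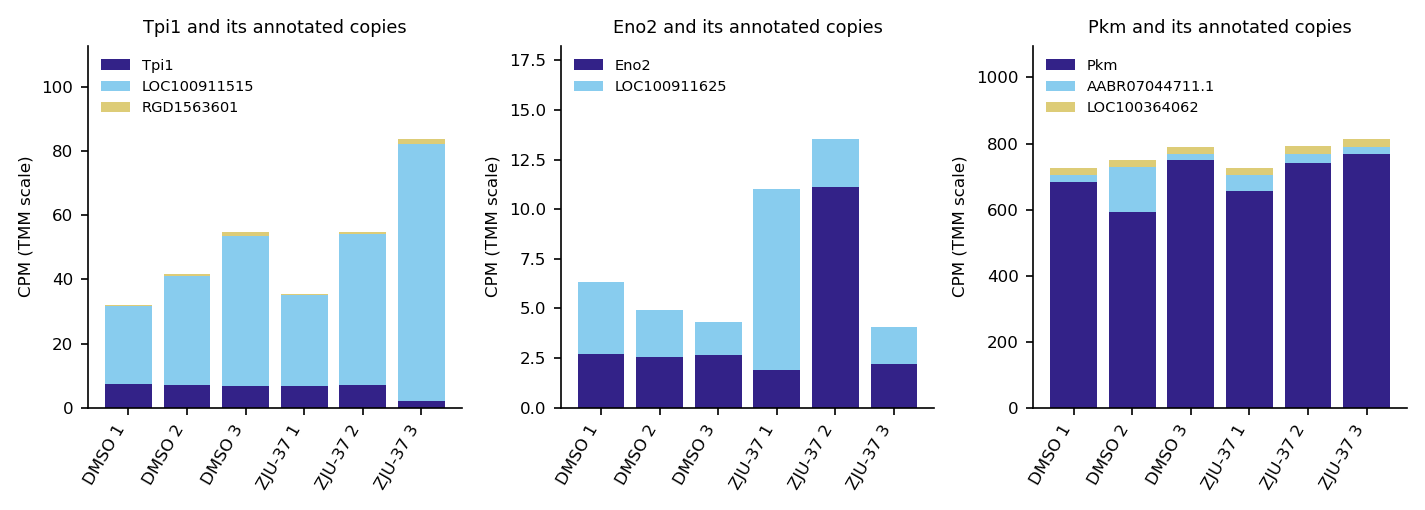
CPM per library of Tpi1, Eno2 and Pkm (dark) stacked with their annotated copies (light), with axes that start at 0 and differ between panels. LOC100911515 holds most of the triosephosphate isomerase counts in all 6 libraries and rises to its highest value in ZJU-37 3, the enolase counts are high in ZJU-37 1 for the copy and in ZJU-37 2 for Eno2, and the Pkm copy AABR07044711.1 stands out in DMSO 2.

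At the lactate and pyruvate step, 7 of 8 enzymes were tested, and 1 was higher and 2 lower (3 and 4 with the block). All 7 passed in at least 1 fit, 4 of them only with the block. Of all genes tested, 9.43% were higher and 5.58% lower (16.2% and 15.9% with the block). The median log2 fold change of the 7 enzymes was -0.27. Lactate dehydrogenase is a tetramer of A and B subunits, of which A-rich forms are typical of lactate-making tissue and B-rich forms of heart and of tissue that uses lactate. Ldha (chromosome 1, 102900286 to 102909707) stood at 618, 492 and 504 CPM with DMSO and 376, 407 and 406 CPM with ZJU-37. The ZJU-37 libraries were all below the DMSO libraries, of which DMSO 1 was the highest. The log2 fold change was -0.44 (SE 0.10, adjusted p = 0.0316), and the adjusted p rose above the threshold without DMSO 3, ZJU-37 1, ZJU-37 2 or ZJU-37 3, to at most 0.0878.

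Ldhb (chromosome 4, 176701983 to 176720012) stood at 155, 154 and 165 CPM with DMSO and 211, 206 and 215 CPM with ZJU-37. The groups were narrow and well apart. Ldhb rose by 0.41 on the log2 scale (SE 0.06, edgeR adjusted p = 0.00407), and the call held without any single library. Ldha made up 76.9, 72.7 and 71.9% of the summed FPKM of the pair with DMSO and 59.9, 62.3 and 61.2% with ZJU-37. The mean share fell from 73.8% ± 2.68 to 61.1% ± 1.24 (SD, n = 3), a difference of -12.7 percentage points in the same direction in 3 of 3 pairs (exact permutation p = 0.1). Ldha remained the more abundant form in every library.

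The pyruvate dehydrogenase E1 enzyme is built from the subunits encoded by Pdha1 and Pdhb, which moved apart. Pdhb (chromosome 15, 18539210 to 18546854) stood at 97.6, 89.7 and 91.1 CPM with DMSO and 75.1, 79.4 and 76.1 CPM with ZJU-37. Pdha1 stood at 118, 99.0 and 102 CPM with DMSO and 136, 123 and 134 CPM with ZJU-37. Neither gene overlapped between the groups, Pdhb lying lower and Pdha1 higher with ZJU-37. Pdhb had a log2 fold change of -0.27 (SE 0.06, adjusted p = 0.0255), a call that was lost in each of the 6 fits without a library (adjusted p up to 0.106). That of Pdha1 was 0.30 (SE 0.08, adjusted p = 0.0565), and 0.31 with the block (SE 0.06, adjusted p = 0.0025). It also passed without the block by DESeq2 (0.035), with no filter (0.0467), and without DMSO 1 or ZJU-37 2 (0.026 and 0.042).

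The kinases Pdk1 to Pdk4 switch this complex off by phosphorylating the E1 alpha subunit. Pdk1 stood at 16.3, 15.1 and 17.0 CPM with DMSO and 13.9, 12.2 and 12.2 CPM with ZJU-37. Pdk2 stood at 22.9, 24.0 and 21.0 CPM and at 19.2, 19.3 and 17.3 CPM. Pdk3 went the other way, from 30.0, 26.8 and 32.1 CPM to 36.8, 34.6 and 39.3 CPM. For all 3 kinases the groups did not overlap, and none passed the test without the block. With the block, edgeR gave Pdk1 a log2 fold change of -0.34 (adjusted p = 0.0295), Pdk2 -0.28 (0.0299) and Pdk3 0.32 (0.00454). The Pdk1 share of the 4 kinases went from 24.3% ± 1.17 to 20.3% ± 1.04 of their summed FPKM (SD, n = 3, exact permutation p = 0.1).

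The promoters of 31 of the 33 enzymes were found in the RefSeq table of assembly GRCr8, in 35 windows of 250 bases before to 50 after the start. The motif ACGTG was searched for on either strand because many glycolytic genes are known targets of HIF-1, the hypoxia-inducible factor. It is a form of the core of the hypoxia response element and part of the E-box that Myc and related factors bind. GCGTG, the other form of that core, was not searched for. A window without a match can still hold it, as that of Ldhb does. ACGTG was present in 13 of 35 enzyme windows (37.1%), beside 6444 of 33469 of all windows (19.3%). The enzyme windows had a median GC content of 63%, beside 51.7%. The whole E-box CACGTG, which contains the shorter motif, was present in 4 enzyme windows (11.4%, beside 6.42%), those of Ldha, Pdhb, Pdk2 and Pfkfb3. Of the 5 enzymes that were lower without the block, Ldha and Pdhb held the motif, and of the 3 higher ones, none did. Among enzymes that passed only with the block, Gpi, Aldoa, Pdk1 and Pdk2 of the lower ones and Pdk3 of the higher ones held it. Hk2, Pdha1 and Mdh1 did not. Whether the motif goes with the direction of change was not tested. The windows of Ldha and Pdhb are shown, with that of Ldhb as the counterpart of Ldha. They lie at chr1:106507842-106508141 on the plus strand (Ldha), chr15:19182539-19182838 on the plus strand (Pdhb) and chr4:177177359-177177658 on the minus strand (Ldhb), run 5′ to 3′ toward the gene, and have each stretch matching the motif in capitals.
Ldha: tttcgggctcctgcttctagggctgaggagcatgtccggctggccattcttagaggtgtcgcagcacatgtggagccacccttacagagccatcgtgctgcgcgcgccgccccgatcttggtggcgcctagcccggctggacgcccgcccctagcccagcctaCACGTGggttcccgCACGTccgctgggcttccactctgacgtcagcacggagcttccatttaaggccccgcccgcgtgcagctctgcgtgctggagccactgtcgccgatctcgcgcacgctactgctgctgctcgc
Pdhb: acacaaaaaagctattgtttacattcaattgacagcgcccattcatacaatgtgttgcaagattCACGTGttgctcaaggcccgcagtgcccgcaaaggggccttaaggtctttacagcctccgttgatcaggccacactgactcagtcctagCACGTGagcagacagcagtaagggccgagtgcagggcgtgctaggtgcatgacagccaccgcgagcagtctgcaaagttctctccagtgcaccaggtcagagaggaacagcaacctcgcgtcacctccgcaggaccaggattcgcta
Ldhb: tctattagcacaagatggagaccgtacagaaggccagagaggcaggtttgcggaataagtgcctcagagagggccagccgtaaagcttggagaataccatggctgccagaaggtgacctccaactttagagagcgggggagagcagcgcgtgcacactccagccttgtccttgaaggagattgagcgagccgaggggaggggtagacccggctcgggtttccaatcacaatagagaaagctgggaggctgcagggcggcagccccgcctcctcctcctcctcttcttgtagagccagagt

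A match is a description of letters and not of binding. The 12 listed HIF targets outside glycolysis, 11 of them tested, give the levels of other genes known to follow this factor. Of these, 4 were lower (beside 5.58% of all genes) and 7 passed in neither direction. Their median log2 fold change was -0.33, beside -0.03 for all genes. Ddit4, a stress-induced brake on mTOR signalling, stood at 162, 148 and 147 CPM with DMSO and 81.8, 77.1 and 74.4 CPM with ZJU-37 (log2 fold change -0.97, SE 0.07, adjusted p = 3.93e-04). Bnip3, a mitophagy receptor, P4ha1, a collagen prolyl hydroxylase subunit, and Vegfa, the vascular growth factor, had log2 fold changes of -0.73, -0.66 and -0.57. With the block 5 of the 11 were lower (beside 15.9% of all genes). Egln1, the oxygen-sensing prolyl hydroxylase, was higher in that fit (0.21, adjusted p = 0.0354), as were 16.2% of all genes. Adm, Egln3, P4ha2, Ndrg1 and Ankrd37 (0.43, 0.08, -0.21, -0.30 and -0.89 without the block) passed in neither fit. Whether HIF-1 had a part in these changes was not tested.

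The TCA list, which also holds the cytosolic forms Idh1, Aco1 and Mdh1 and the NADP-dependent Idh2, had 9 tested enzymes. Of these, 1 was higher and 2 lower (2 and 3 with the block), with a median log2 fold change of 0.00. Of all genes tested, 9.43% were higher and 5.58% lower (16.2% and 15.9% with the block). The largest change of the list was in Idh1, the cytosolic isocitrate dehydrogenase that makes NADPH (chromosome 9, 71882105 to 71900044). It stood at 348, 229 and 260 CPM with DMSO and 178, 145 and 153 CPM with ZJU-37. DMSO 1 and ZJU-37 1 were the highest of their groups, and the groups did not overlap. Idh1 had a log2 fold change of -0.81 (SE 0.17, adjusted p = 0.0206) and, with the block, -0.80 (SE 0.06, adjusted p = 1.68e-05). Without the block the call was lost when DMSO 3, ZJU-37 2 or ZJU-37 3 was left out (adjusted p up to 0.0805).

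Idh2, the mitochondrial NADP-dependent form (chromosome 1, 141866283 to 141893705), stood at 72.5, 87.7 and 86.0 CPM with DMSO and 103, 107 and 101 CPM with ZJU-37. All ZJU-37 libraries were higher. Its rise was 0.33 on the log2 scale (SE 0.08, adjusted p = 0.0422), and the adjusted p reached 0.058 to 0.109 when a library was left out. Idh2 overlaps Zfp710 on the opposite strand, and because the strand setting of the counting is not given, their reads cannot be told apart. Zfp710 held 44.3 to 65.8 CPM with a log2 fold change of -0.12 (adjusted p = 0.679). Idh1 made up 81.5, 70.6 and 73.6% of the summed FPKM of the pair with DMSO and 61.4, 55.6 and 58.2% with ZJU-37. The mean share fell from 75.2% ± 5.66 to 58.4% ± 2.93 (SD, n = 3), a difference of -16.8 percentage points (exact permutation p = 0.1).

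Malate dehydrogenase also has a cytosolic form, Mdh1, and a mitochondrial form, Mdh2, which together carry the malate-aspartate shuttle. Mdh2 (chromosome 12, 23941448 to 23954431) stood at 265, 256 and 248 CPM with DMSO and 209, 221 and 222 CPM with ZJU-37. Mdh1 stood at 227, 216 and 227 CPM with DMSO and 259, 256 and 251 CPM with ZJU-37. Neither form overlapped between groups. By FPKM, Mdh2 was above Mdh1 in each DMSO library (186 to 199 against 164 to 172) and below it in each ZJU-37 library (160 to 166 against 189 to 198). The log2 fold change of Mdh2 was -0.24 (SE 0.06, adjusted p = 0.0426), with adjusted p up to 0.13 when a library was left out, and that of Mdh1 was 0.19 (adjusted p = 0.0652, 0.0154 with the block and 0.0321 by DESeq2). Per length, Mdh1 made up 46.6% ± 1.13 of the pair with DMSO and 54.1% ± 1.16 with ZJU-37 (SD, n = 3), higher in 3 of 3 pairs (exact permutation p = 0.1).

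**Figure D5:**
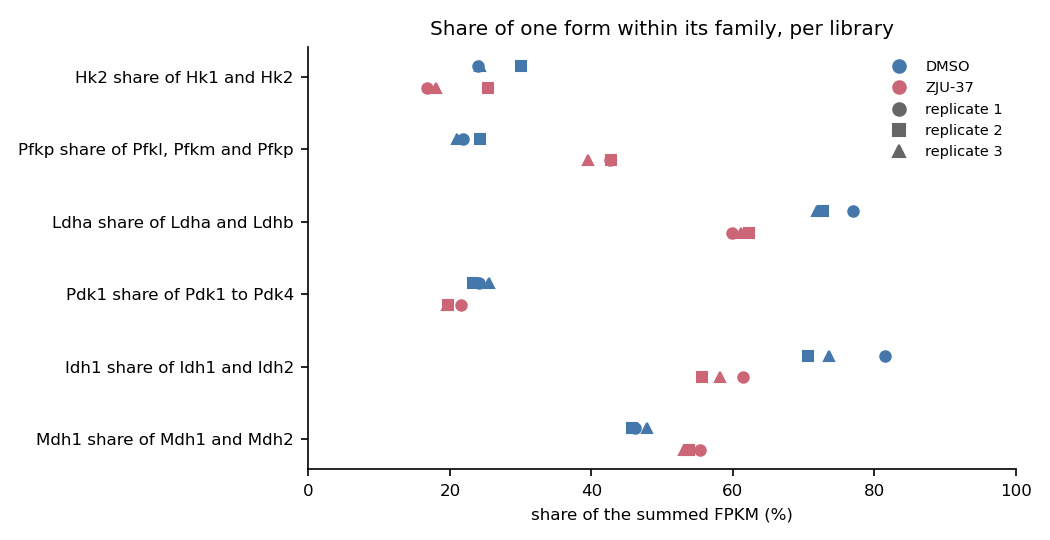
Share of one form in the summed FPKM of its family, in percent (x axis), per library, with DMSO in blue, ZJU-37 in red and the symbol giving the replicate number. The ZJU-37 libraries lie to the right of all DMSO libraries for Pfkp and Mdh1, to the left for Ldha, Pdk1 and Idh1, and overlap for Hk2.

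The other TCA enzymes moved little. Idh3a, a subunit of the NAD-dependent isocitrate dehydrogenase of the cycle itself, stood at 136, 116 and 107 CPM with DMSO and 105, 103 and 101 CPM with ZJU-37. The groups did not overlap but came within a few CPM of each other. Its log2 fold change was -0.21 (adjusted p = 0.188, and 0.0335 with the block). Citrate synthase Cs, which opens the cycle, the cytosolic aconitase Aco1, and the succinyl-CoA ligase subunits Suclg1 and Suclg2 had log2 fold changes of 0.08, 0.01, 0.00 and -0.13, with adjusted p from 0.18 to 0.991. A row named LOC103693780, described as a 2-oxoglutarate dehydrogenase-like gene and not counted among the members, had -0.02 (adjusted p = 0.891).

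In the pentose phosphate pathway both tested enzymes, transketolase Tkt and transaldolase Taldo1 of the non-oxidative branch, passed in no direction by edgeR, with or without the block, by DESeq2, or at an unadjusted p under 0.05. Tkt stood at 512, 554 and 541 CPM with DMSO and 475, 549 and 546 CPM with ZJU-37. Taldo1 stood at 328, 345 and 326 CPM with DMSO and 284, 326 and 321 CPM with ZJU-37. Tkt overlapped between groups, and for Taldo1 the groups nearly met at 326 CPM. Their log2 fold changes were -0.03 (SE 0.08) and -0.10 (SE 0.07).

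The listed partners of these enzymes give the rest of the pathways. Of 46 tested partners, 6 were higher (13.0%, beside 9.43% of all genes) and 3 lower (6.52%, beside 5.58%), with a median log2 fold change of -0.06. With the block 7 were higher (15.2%, beside 16.2%) and 9 lower (19.6%, beside 15.9%). The shares lay near those of all genes, so the partners are given as single genes. The 3 pentose phosphate partners that were higher make ribose 5-phosphate or the nucleotide precursor built from it. Rpia, the ribose 5-phosphate isomerase, had a log2 fold change of 0.74 (adjusted p = 0.0111), and the phosphoribosyl pyrophosphate synthetases Prps1 and Prps2 had 0.64 and 0.55 (adjusted p = 0.00245 and 0.00389). Prps1 stood at 64.0, 53.2 and 57.9 CPM with DMSO and 93.3, 89.7 and 90.3 CPM with ZJU-37. For all 3 genes, no ZJU-37 library overlapped a DMSO library.

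Among partners of the TCA cycle, Pck2, the mitochondrial phosphoenolpyruvate carboxykinase, had 0.69 (adjusted p = 0.0242), the cytosolic malic enzyme Me1 0.43 (adjusted p = 0.0356) and pyruvate carboxylase Pc 0.42 (adjusted p = 0.0397). The mitochondrial malic enzyme Me3 went from 20.9, 26.9 and 21.9 CPM to 12.2, 7.57 and 10.7 CPM, a log2 fold change of -1.19 (adjusted p = 0.00824). Malic enzyme thus had 1 form higher and 1 lower. Its form Me2 had a mean of 81.4 CPM in both groups (log2 fold change 0.00, edgeR adjusted p = 0.998). Aldoc, the brain form of aldolase, went from 122, 98.4 and 109 CPM to 60.2, 54.8 and 65.9 CPM (log2 fold change -0.86, adjusted p = 0.00235), and Pdhx, which ties a subunit into the pyruvate dehydrogenase complex, fell by 0.42 on the log2 scale (adjusted p = 0.00623). The glucose transporter Slc2a1 had -0.50 (adjusted p = 0.0794, 0.0267 with the block and 0.0167 by DESeq2), and the mitochondrial pyruvate carrier subunit Mpc2 had -0.24 (adjusted p = 0.0587, 0.0106 with the block and 0.0651 by DESeq2).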

How the data were processed

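RNA-seq covered primary rat OPCs given ZJU-37 or DMSO, 3 libraries per group by title, in 1 table. The submitters' processing notes name HISAT2 2.0.5, StringTie 1.3.3b and featureCounts 1.5.0. The genome build, the annotation and the strand setting are not given in the sources used here. The authors deposited raw counts per gene and FPKM values (fragments scaled to gene length and library total). The 5 columns of the authors' own DESeq2 comparison were not used. The members and lists were chosen with earlier results of these data known.

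From the counts, genes were filtered (filterByExpr), normalized by TMM (factors 0.981 to 1.04) and tested over all 14670 remaining genes with edgeR 4.0.16 (glmQLFit, robust, glmQLFTest, two-sided) in R 4.3.3, with Benjamini-Hochberg adjustment and a threshold of 0.05. Fold changes use a prior count of 0.125. CPM use the TMM-scaled library sizes. Same-numbered libraries correlated in their deviations from the group means (r = 0.50, 0.39 and 0.40, against -0.34 to 0.01 for other pairs), so the numbers of the titles were taken as pairs, and blocked values are printed where they change a call. Shares within an enzyme family were computed per library from the deposited FPKM and tested by exact permutation with scipy 1.17.1. All enzymes could be named, with library values for those past a test, for the extremes of each pathway and for Ldha and Ldhb. Other listed genes were named only where they passed a test or bore on a result. No 2 libraries agreed within sampling noise. The scripts were tested on simulated counts without pairing, at the threshold of 0.05. There 7.97% of the edgeR calls were false, 10.4% with the block and 22.6% with DESeq2. For simulated log2 changes of 0.5, edgeR called 16% of the changed genes, and 10% with the block. Small changes can therefore be missed, and calls by DESeq2 or with the block alone are less secure. Copies (genes that the table describes as like a member) were summed into the named gene as an alternative chosen after seeing the data. Promoters were read from the RefSeq table (GRCr8) and not tied to the authors' coordinates. Depth ran from 13935865 to 24097927 counts. DESeq2 1.42.0, limma 3.58.1 (voom, and log2(FPKM + 1) or log2(FPKM + 0.1)), other normalizations and filters, and leaving out each library were the alternatives.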

Additional observations from a re-analysis of the deposited data

How the results depend on the processing

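Other normalizations, other filters, limma-voom and limma on FPKM kept the counts of higher and lower enzymes within 1.5 times the reported 3 and 5, and DESeq2 gave 5 higher enzymes. With the replicate block, 4705 genes in all, 6 higher and 11 lower enzymes passed, and with copies summed and the block, 4705, 7 and 11. The block changed no other enzyme call, and its effect on partners and markers stands beside their counts. Leaving out a library gave 1306 to 1927 genes in all, 2 to 3 higher and 1 to 3 lower enzymes, fewer samples being the only change. The 8 called enzymes kept their sign in every alternative, and Pfkl, Pfkp and Ldhb kept their call in every one. Idh2 was also lost with upper-quartile normalization (adjusted p = 0.051) and limma on FPKM (0.052 and 0.0515), and Mdh2 with library size only (0.054) and with no filter on low counts (0.0636). The cause was not tested.

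Of 512 values for single enzymes, those with copies summed not counted, 437 kept direction and side of the threshold, 25 newly passed, 30 no longer passed and 20 changed sign, all 20 in enzymes without a call and at most 0.33 in size. Suclg1 was at -0.00 with upper-quartile factors, DESeq2 size factors, DESeq2 and limma on FPKM. Pgam1 was at 0.03 with library size only, 0.01 with no filter and 0.00 with at least 10 counts in every library. With copies summed, not among these values, Tpi1 turned from -0.40 to 0.44 and, with the block as well, to 0.40. Without a library, log2 fold changes ran from -0.15 to 0.07 for Pfkm, -0.02 to 0.07 for Pgam1, -0.07 to 0.08 for Aco1, -0.02 to 0.05 for Suclg1, -0.07 to 0.05 for Tkt, -0.33 to 1.34 for Eno2 and -0.61 to 0.00 for Tpi1, and the Eno2 share from -0.0824 to 0.403 percentage points. With the pairing as a block, the shares kept their differences and the smallest p that 3 pairs allow is 0.25. Depth limits Pdk4, with at most 9 counts, and counts under copies limit Tpi1 and Eno2.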

Other observations

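The pairs of same-numbered libraries did not weigh alike. Of the 32 tested enzymes, 24 had their lowest log2 difference in pair 1 (DMSO 1 and ZJU-37 1), 1 in pair 2 and 7 in pair 3, and the median difference was -0.17, -0.03 and -0.04 in the 3 pairs. The enzymes that were lower in all 3 pairs numbered 15, those higher in all 3 pairs 8. These pair counts were not made over all genes tested. A skew of the enzymes and a skew of the libraries as a whole therefore cannot be told apart here. For Pfkl the pair differences were -1.16, -0.65 and -0.77, for Ldha -0.71, -0.27 and -0.31, for Aldoa -0.82, -0.29 and -0.35, and for Idh1 -0.97, -0.65 and -0.77. Among the higher enzymes they were 0.69, 0.77 and 0.74 for Pfkp, 0.44, 0.42 and 0.39 for Ldhb, and 0.50, 0.28 and 0.23 for Idh2.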
